A study of Mus musculus with 6 samples.

Results

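Alternative activation is the state that interleukin-4 and interleukin-13 induce in macrophages, and the 9 genes described here trace that route from ligand to target. Il4 and Il13 encode the cytokines, Il4ra the receptor chain that both cytokines use, and Stat6 the transcription factor that the receptor activates. Irf4 and Klf4 encode transcription factors that act with STAT6 in macrophages, and Retnla, Mgl2 and Tgm2 are genes that mouse macrophages induce in response to the cytokines. The genes were chosen by symbol, with earlier results of the same data known, and all 9 are among the 23946 gene symbols of the deposited table. Of these 9 genes, 8 reached 1 fragment per kilobase per 1000000 aligned reads (FPKM) in at least 1 library, as did 13064 genes of the table, and 7 reached an FPKM of 10. Il13 did not reach 1.

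The libraries were made from RNA of CD45+CD11b+F4/80+ cells, a macrophage sort, taken from dissociated tissue of C57BL/6 mice, for which the labels name no transgene or mutation. Omentum (OM) and mesentery with its adipose tissue (MY) of 9 mice were processed in 3 groups of 3 mice, so that a library holds pooled animals. The conditions in each tissue were naive (a disease state labelled normal), 24 h after injection of ID8 cells and 7 d after it, where ID8 is a mouse ovarian cancer line of the same strain. The methods of the study give female mice aged 6 to 8 weeks, for all its experiments together. Each of the 6 conditions had 1 library, so there was no spread between replicates, no test was made, and every difference below describes a pair of libraries. Neighbours in an order of levels therefore could not be separated from the variation between pools of mice.

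The FPKM of a library summed to between 526887 and 713863, and the relative depth, estimated from how the lowest FPKM values of each library scaled against those of MY naive, lay between 0.856 and 1.49. Transcripts of the sort markers were present in all 6 libraries, with an FPKM of Ptprc (CD45) of at least 106, of Itgam (CD11b) of at least 27.8 and of Emr1 (F4/80) of at least 20.5. Genes of lymphocytes were present too. The summed FPKM of 6 B cell genes ran from 925 to 4123 in the omentum and from 538 to 1578 in the mesentery, and that of 7 T cell genes from 24.3 to 100.4 and from 475 to 993. OM 24h stood apart in that Cd74 was listed at 0 there and at 11323 or more in the other libraries.

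IL-4 and IL-13 bind receptors that share the IL-4 receptor alpha chain, Janus kinases then phosphorylate STAT6, and STAT6 binds DNA at a palindrome with TTC and GAA at its ends. RELMα, the protein of Retnla, is a small secreted protein and among the most used markers of this state in mouse macrophages. Macrophages of adipose tissue and of the peritoneal cavity are known to express it. The promoters of Retnla and Mgl2 are shown because these genes had the widest ranges over the libraries. They are RefSeq windows of 300 bases, from 250 bases before to 50 bases after the start of the gene, in the plus-strand direction of both genes. Capitals mark TTCNNNNGAA, the spacing that STAT6 prefers, which is in the first window and not in the second.
Retnla: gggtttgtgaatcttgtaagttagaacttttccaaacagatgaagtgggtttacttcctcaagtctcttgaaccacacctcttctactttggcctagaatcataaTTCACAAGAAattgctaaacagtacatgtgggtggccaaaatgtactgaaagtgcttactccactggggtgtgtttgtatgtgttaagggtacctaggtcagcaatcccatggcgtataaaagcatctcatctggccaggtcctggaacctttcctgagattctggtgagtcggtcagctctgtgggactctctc
Mgl2: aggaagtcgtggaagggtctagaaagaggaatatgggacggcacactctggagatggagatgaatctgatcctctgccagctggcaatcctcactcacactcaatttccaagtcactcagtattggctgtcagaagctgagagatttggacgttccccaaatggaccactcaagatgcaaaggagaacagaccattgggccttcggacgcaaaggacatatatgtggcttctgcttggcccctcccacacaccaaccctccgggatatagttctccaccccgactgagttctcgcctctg
The Retnla window matched its chromosome of the NCBIM37 (mm9) assembly once, at chr16:48842472-48842771, and the Mgl2 window once, at chr11:69943609-69943908. RefSeq gives their coordinates in its own build, GRCm38.p6, which was not used for positions here.

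In the Retnla window the letters TTCACAAGAA begin 145 bases before the RefSeq start. The gene position given for Retnla further on is from another annotation, GENCODE M1, which places the start at a different base. The Mgl2 window holds neither TTCNNNNGAA nor the shorter TTCNNNGAA. Both motifs read the same on either strand and cannot start at the same base, although matches with different starts may overlap. Of 32851 promoter windows of the same length, 6.95% hold TTCNNNNGAA, 8.30% hold TTCNNNGAA and 14.6% hold at least 1 of them. Windows were found for 8 of the 9 genes, the missing entry being that of Tgm2. Il4 had 2 windows, with TTCACAGGAA 167 bases before 1 of its starts and TTCATGGAA 4 bases before the other. The windows of Il4ra, Stat6, Irf4, Klf4 and Il13 held neither motif. A match describes letters only, and no binding was measured.

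Retnla had the highest level of the 9 genes in every omental library and in MY 24h. Its FPKM was 3681 in OM naive, 2402 in OM 24h and 311 in OM 7d, against 23.6 in MY naive, 221 in MY 24h and 5.97 in MY 7d. All omental libraries were thus above all mesenteric ones, with OM 7d and MY 24h the closest pair across the tissues. The highest level was 617 times the lowest, a range of 9.05 on the log2(FPKM + 1) scale that ranked 4 among the 13064 expressed genes, where the median range was 0.95. In OM naive Retnla was the gene with the 11th highest FPKM of the whole library. In MY 7d it ranked 7821. In bulk samples, fewer cells that express a gene and less RNA per cell cannot be told apart, and this holds for every gene below.

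The order of the Retnla levels over time differed between the tissues. In the omentum it was lower at each later time, with a log2 difference to OM naive of -0.62 at 24 h and of -3.56 at 7 d. In the mesentery it was 9.36 times as high at 24 h as in the naive library, a log2 difference of 3.17, and then lower than in the naive library at 7 d, by -1.82. The log2 difference between the tissues was accordingly 7.22 in the naive libraries, 3.43 at 24 h and 5.49 at 7 d. The differences over time share their naive library, so that OM naive enters both omental values and MY naive both mesenteric ones.

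Levels of macrophage genes moved beside these values. The mean log2(FPKM + 1) of a list of 10 macrophage genes, all expressed, was 6.59, 8.78 and 6.19 in OM naive, OM 24h and OM 7d and 5.60, 6.83 and 5.87 in MY naive, MY 24h and MY 7d. Their summed FPKM ran from 1411 to 13681 in the omentum and from 1357 to 3400 in the mesentery. Set relative to that list, a measure added after the data were seen, Retnla differed between OM 24h and OM naive by -2.81 and between MY 24h and MY naive by 1.94. The difference between the tissues at 24 h was then 1.49. A list of 8 genes of resident tissue macrophages, among them Cd163, Lyve1 and Folr2, had no gene at 0. Its summed FPKM was 241 to 901 in the omentum and 61.0 to 117 in the mesentery. Of the 8, 7 were at least 2-fold higher in the omentum and 0 lower when naive, beside 8.18% and 8.05% of all expressed genes. At 24 h 7 were higher and Timd4 lower, beside 13.9% and 10.2%. At 7 d 4 were higher and Timd4 lower, beside 14.1% and 4.99%. Between OM 7d and OM naive Gas6 was higher and 6 were lower, beside 11.0% and 1.96%. Mrc1 is both on this list and on the response list described further on. The part of these cells in the Retnla levels was not tested.

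**Figure D1:**
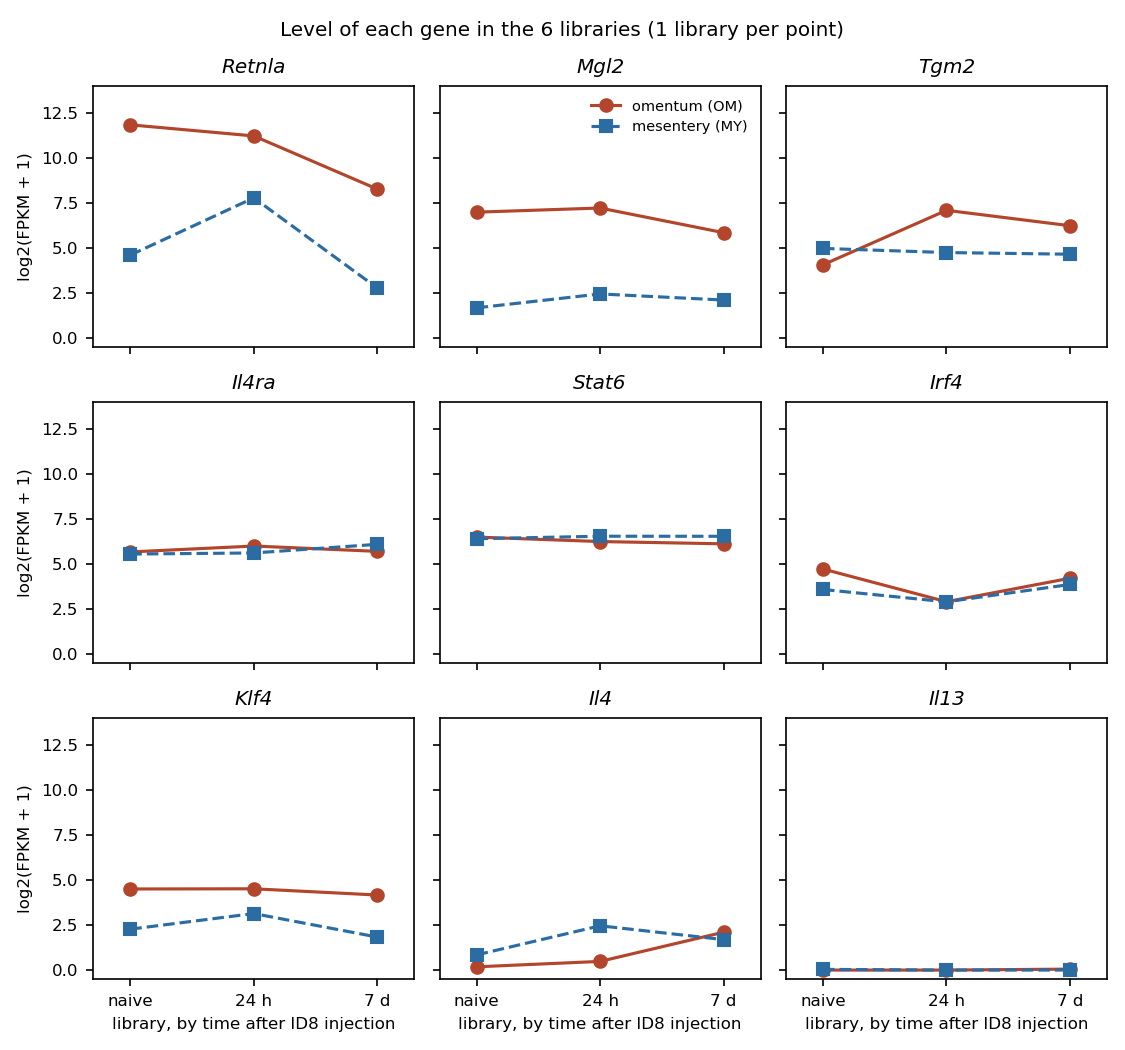
Level of each of the 9 genes as log2(FPKM + 1) on the vertical axis, by time after the injection of ID8 cells on the horizontal axis, with 1 library per point. Circles with solid lines are the omentum and squares with dashed lines the mesentery. Retnla and Mgl2 lie higher in the omentum at every time, Il4ra and Stat6 are nearly level, and Il13 lies at the bottom of the scale.

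Retnla lies at 48842665 to 48844574 on the plus strand of chromosome 16 of NCBIM37, between its relatives Retnlb and Retnlg. Of its 524 transcript windows of 75 bases, the read length, 0 were shared with other genes. Retnlg, which encodes another resistin-like protein and is also on the list of neutrophil genes used here, stood at an FPKM of 400.0, 872 and 501 in OM naive, OM 24h and OM 7d. In MY naive, MY 24h and MY 7d it stood at 40.5, 263 and 163. Both genes were thus higher in the omentum at each time, and in the mesentery both were highest at 24 h. In the omentum Retnlg was highest at 24 h and Retnla in the naive library. The summed FPKM of 6 neutrophil genes was 5867 to 14551 in the omentum and 229.7 to 661 in the mesentery, with no gene at 0 in any library, and its part in these levels was not tested. Retnlb did not exceed 0.207, and Retn, the resistin gene of adipocytes, was highest in OM naive at 4.37.

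The genes with the profile nearest to that of Retnla, by Euclidean distance between centred log2(FPKM + 1) values over the 6 libraries, were Pf4 (distance 2.41), Fcrls (2.97), Fn1 (3.23), Clec4b1 (3.39) and Tppp3 (3.65). The ranking was limited to the 7998 genes that reached an FPKM of 10 anywhere. Pf4, which encodes platelet factor 4, stood at an FPKM of 167, 601 and 25.8 in the omental libraries in order of time and at 2.79, 23.9 and 1.52 in the mesenteric ones. It shared with Retnla the high value at 24 h within the mesentery. The distances are large, which goes with the width of the Retnla range, and ranking by Pearson's r over the same 6 libraries kept 0 of these 5 genes.

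Mgl2 encodes a C-type lectin that binds galactose-type sugars and is found on alternatively activated macrophages and on a subset of dendritic cells. Its FPKM was 127 in OM naive, 149.6 in OM 24h and 57.4 in OM 7d, against 2.25, 4.54 and 3.38 in MY naive, MY 24h and MY 7d. The tissues were far apart at every time, the lowest omental value being far above the highest mesenteric one. The log2 difference between the tissues was 5.31 in the naive libraries, 4.76 at 24 h and 3.74 at 7 d. Over time Mgl2 was lower in OM 7d than in OM naive, by -1.14, and than in OM 24h, by -1.37, a difference that was 1.22 relative to the macrophage list. The mesenteric libraries differed from each other by less than 2-fold on the log2(FPKM + 1) scale.

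The neighbouring gene Clec10a, which encodes the paralogous lectin MGL1, lies on the same strand of chromosome 11, at 69980125 to 69984336, and Mgl2 at 69943831 to 69951052. They shared 145 windows of 75 bases, which is 7.95% of those of Mgl2, so part of the reads of these genes may be split by the counting. The FPKM of Clec10a was 88.6, 136 and 61.5 in OM naive, OM 24h and OM 7d and 10.3, 28.4 and 9.21 in MY naive, MY 24h and MY 7d. The mesenteric level of Clec10a was thus several times that of Mgl2, while in the omentum Mgl2 was the higher in OM naive and OM 24h. The nearest profiles to Mgl2 were those of C4b (distance 0.65), Mir1938 (0.86), Clec4b1 (0.87), Lpl (1.10) and Ccr1 (1.41). Only C4b was also among the 5 nearest by Pearson's r.

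Cd209a, a lectin gene of monocyte-derived dendritic cells, moved in the same way as Mgl2 between the tissues. It stood at an FPKM of 264, 104 and 82.0 in the omental libraries in order of time and at 11.7, 15.3 and 13.2 in the mesenteric ones. The 9 dendritic cell genes, all expressed, had a summed FPKM of 240 to 495 in the omentum and of 684 to 977 in the mesentery, where Ccr7 alone reached 526 to 761. Between the naive libraries 1 of the 9 was at least 2-fold higher in the omentum (Cd209a) and 1 lower (Ccr7). The shares of all expressed genes were 8.18% and 8.05%. At 24 h 1 was higher and 5 were lower, beside 13.9% and 10.2%. At 7 d 1 was higher and 2 were lower, beside 14.1% and 4.99%. The part of dendritic cells in the level of Mgl2 was not tested.

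Tgm2 encodes tissue transglutaminase, an enzyme that crosslinks proteins and is induced by IL-4 in mouse and human macrophages. Its FPKM was 16.0 in OM naive, 137 in OM 24h and 75.2 in OM 7d, against 30.9, 26.2 and 24.5 in MY naive, MY 24h and MY 7d. The naive omental library held the lowest of the 6 values and the later omental libraries the highest ones, so that the tissues overlapped. The log2 difference to OM naive was 3.02 at 24 h and 2.16 at 7 d, while the mesenteric libraries stayed within 2-fold of each other. In the omentum Tgm2 was thus at least 2-fold higher than in the naive library at both later times, where Retnla was lower and Mgl2 was within 2-fold at 24 h and lower at 7 d.

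Of the genes listed beside Tgm2, the 6 mesothelial ones were also highest in OM 24h and OM 7d. Their summed FPKM was 69.8 in OM naive, 741 in OM 24h and 782 in OM 7d and at most 0.567 in the mesentery, where Upk3b, Msln and Krt19 were near 0. Gata6, the factor that defines large peritoneal macrophages, stood at 2.06, 15.9 and 36.7 in the omental libraries in order of time and at 0.298 or less in the mesenteric ones. The list of 10 large peritoneal macrophage genes, all expressed, had a summed FPKM of 214 to 227 in the omentum and of 93.4 to 149.7 in the mesentery. Not all of its genes followed Gata6. Timd4 stood at 27.8 in OM naive, 13.5 in OM 24h and 5.30 in OM 7d. Between OM naive and OM 7d, Gata6, Alox15 and Garnl3 gained 2-fold or more, while Timd4, Icam2, Prg4 and Fabp7 lost as much. Of all expressed genes 11.0% were higher and 1.96% lower by that measure. Between OM naive and OM 24h, Gata6, Selp, Alox15, Fabp7 and Garnl3 gained 2-fold or more and Icam2 lost as much, beside 11.9% and 6.45%. The 6 fibroblast genes summed to 345, 221 and 1190.0 in the omental libraries in order of time and to 2.08 to 3.10 in the mesentery. The part of these lists in the Tgm2 levels was not tested. The nearest profiles were those of Pwwp2b (distance 0.49), Ttyh2 (0.51), Pald1 (0.56), Ajuba (0.76) and Sox4 (0.77). Only Pwwp2b and Pald1 were also among the 5 nearest by Pearson's r. Relative to the macrophage list, the difference of Tgm2 between OM 24h and OM naive was 0.83.

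The receptor chain and STAT6 were nearly level over the same libraries. The FPKM of Il4ra was 50.1, 63.1 and 51.2 in OM naive, OM 24h and OM 7d and 46.1, 48.1 and 67.4 in MY naive, MY 24h and MY 7d. Its highest level was 1.46 times its lowest, and the tissues overlapped. The FPKM of Stat6 was 89.4, 75.1 and 68.8 in the omental libraries in order of time and 83.8, 92.4 and 92.2 in the mesentery, a ratio of highest to lowest of 1.34. Only 9.48% of the expressed genes had a narrower range than Stat6, and 18.6% a narrower range than Il4ra. In none of the 9 comparisons did either gene differ by 2-fold in FPKM as deposited. Relative to the macrophage list, which was highest in OM 24h, Il4ra differed between OM 24h and OM naive by -1.86 and Stat6 by -2.44, and between the tissues at 24 h by -1.56 and -2.24.

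Stat6 had the narrowest range of the 6 STAT genes reported here. Stat4, which acts downstream of IL-12 in T and NK cells, had the widest, with a log2 range of 2.74 and levels from 7.72 in OM 24h to 57.3 in MY 7d. The next was Stat2, a mediator of interferon signals, with a range of 1.70. By level, Stat6 was close to Stat3, whose FPKM ran from 61.9 in OM 24h to 108 in MY 7d.

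Of the 18 further genes fixed for the receptor and its signalling, 17 were expressed. Il2rg, the chain that pairs with the IL-4 receptor alpha chain on hematopoietic cells, ran from an FPKM of 271 in OM 7d to 522 in MY 7d. Il13ra1, the chain of the receptor that also binds IL-13, stood at 16.2, 37.2 and 24.5 in the omental libraries in order of time and at 11.4, 27.6 and 18.9 in the mesenteric ones, highest at 24 h in both tissues. The decoy receptor gene Il13ra2 did not exceed 0.567. Between the naive libraries 4 of the 17 genes were at least 2-fold higher in the omentum and 0 lower, namely Irs2, an adaptor of the IL-4 receptor, and Socs3, Nfil3 and Cebpb, which are feedback and transcription factor genes. The share among all expressed genes was 8.18% higher and 8.05% lower. The median log2 difference of the list was 0.42, against 0.01 for all expressed genes. At 24 h the median was -0.11, with 4 genes higher and 3 lower, beside 13.9% and 10.2% of all expressed genes. At 7 d it was -0.07, with 5 higher and 2 lower, beside 14.1% and 4.99%. Irs2, Socs3, Nfil3 and Cebpb were higher in the omentum at 24 h and 7 d too. The kinase genes Jak1 and Tyk2 were at least 2-fold lower there at both later times and Jak2 at 24 h.

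**Figure D2:**
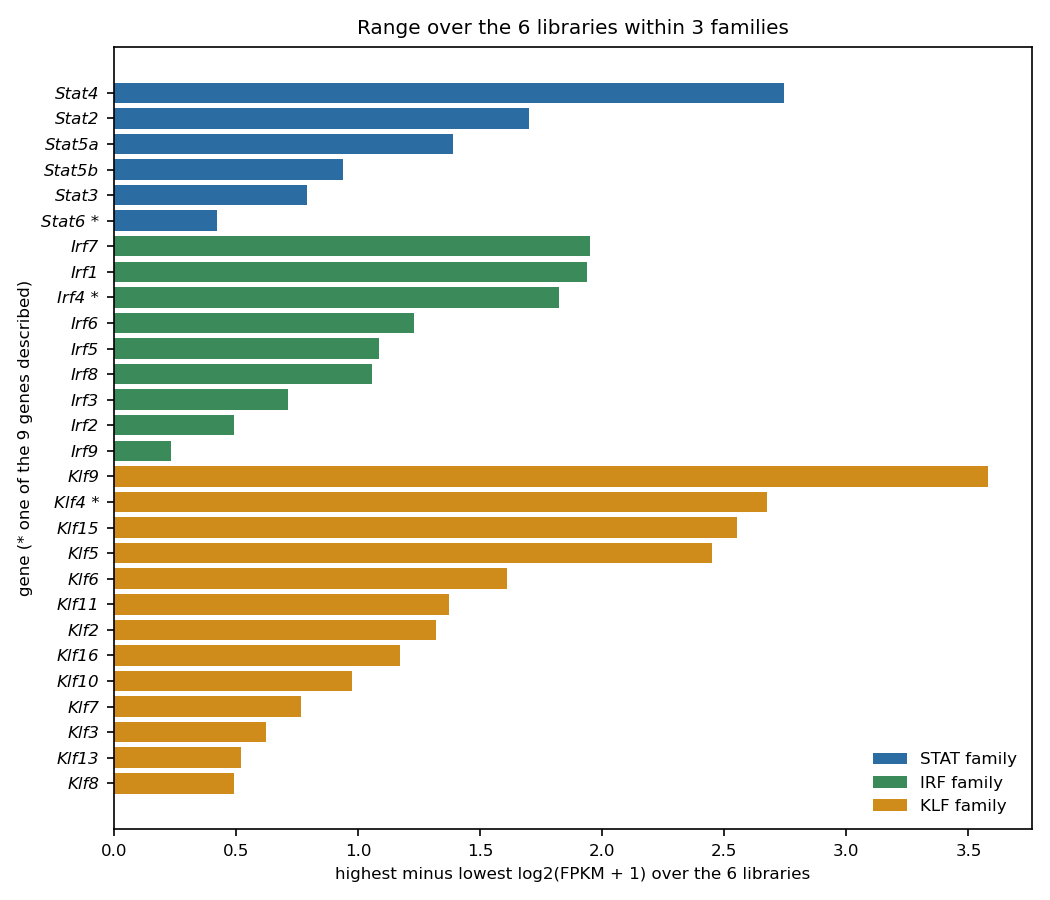
Range of expressed STAT, IRF and KLF genes over the 6 libraries, as the highest minus the lowest log2(FPKM + 1) on the horizontal axis. An asterisk marks Stat6, Irf4 and Klf4. Of the STAT genes shown, Stat6 has the shortest bar at 0.42, whereas Irf4 (1.82) ranks 3 in its family and Klf4 (2.68) ranks 2.

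Irf4 encodes a factor that macrophages use in alternative activation and that B cells, plasma cells and dendritic cells use as well. Its FPKM was 25.5 in OM naive, 6.54 in OM 24h and 17.6 in OM 7d, and 11.1, 6.50 and 13.6 in MY naive, MY 24h and MY 7d. The libraries taken at 24 h were the lowest in both tissues and nearly equal, and the tissues overlapped. The log2 difference between OM 24h and OM naive was -1.81, and that between the naive libraries was 1.14, which was 0.14 relative to the macrophage list. The ratio of highest to lowest level was 3.92, just under the 4-fold set for naming nearest profiles, and the genes named next were therefore chosen after their values were seen.

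Among the profiles nearest to that of Irf4 were those of Cd22 (distance 0.33), a B cell receptor gene, Nfatc1 (0.37), Atp2a3 (0.37) and Cd55 (0.38). These genes were not among the 5 nearest by Pearson's r. Ms4a1, the gene of the B cell antigen CD20, stood at an FPKM of 883, 158 and 501 in OM naive, OM 24h and OM 7d, against 88.8, 47.1 and 219 in the mesenteric libraries in the same order. Like Irf4 it was lowest at 24 h in both tissues. Pearson's r between the log2 values of Irf4 and Ms4a1 was 0.878 over these 6 libraries, which differ in tissue, time and depth. The 6 B cell genes had no gene at 0 in any library. The 6 plasma cell genes had a summed FPKM of 534 to 1126 in the omentum and of 186 to 1259 in the mesentery, and the sum was lowest at 24 h in both tissues. Igj and Mzb1 made up most of it, while Sdc1 and Xbp1 were highest at 24 h in the omentum. The part of B cells and plasma cells in the Irf4 level was not tested.

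Klf4 encodes a zinc finger factor that STAT6 induces in macrophages and that monocytes also express. Its FPKM was 21.6, 21.7 and 16.9 in OM naive, OM 24h and OM 7d, against 3.82, 7.77 and 2.56 in MY naive, MY 24h and MY 7d. All omental libraries were above all mesenteric ones, and the omental values differed little among themselves. The log2 difference between the tissues was 2.23 in the naive libraries, 1.37 at 24 h and 2.33 at 7 d. In the mesentery the level at 24 h was the highest, as it was for Retnla and Mgl2. Relative to the macrophage list, the difference between the tissues at 24 h became -0.57.

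Of 13 expressed KLF genes, Klf9 alone had a wider range than Klf4. Klf2, which is high in resting lymphocytes, was the highest of the family by level, with 714, 301 and 331 in the omental libraries in order of time and 448, 286 and 381 in the mesenteric ones. The nearest profiles to Klf4 were those of Fgfr1 (distance 0.44), Dapk1 (0.61), Ifitm6 (0.69), Padi4 (0.71) and S100a4 (0.72). Only Fgfr1 was also among the 5 nearest by Pearson's r.

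Klf4 also belongs to the genes that cells induce within minutes of a stimulus, and the list of 12 genes known to be induced by tissue dissociation separated the tissues in the same way. All 12 were expressed, and their summed FPKM ran from 5021 to 7720 in the omentum and from 619 to 725 in the mesentery. Fos stood at 729.8, 1715 and 1129 in the omental libraries in order of time and at 8.17, 9.52 and 6.37 in the mesenteric ones. The part of dissociation in the Klf4 level was not tested.

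**Figure D3:**
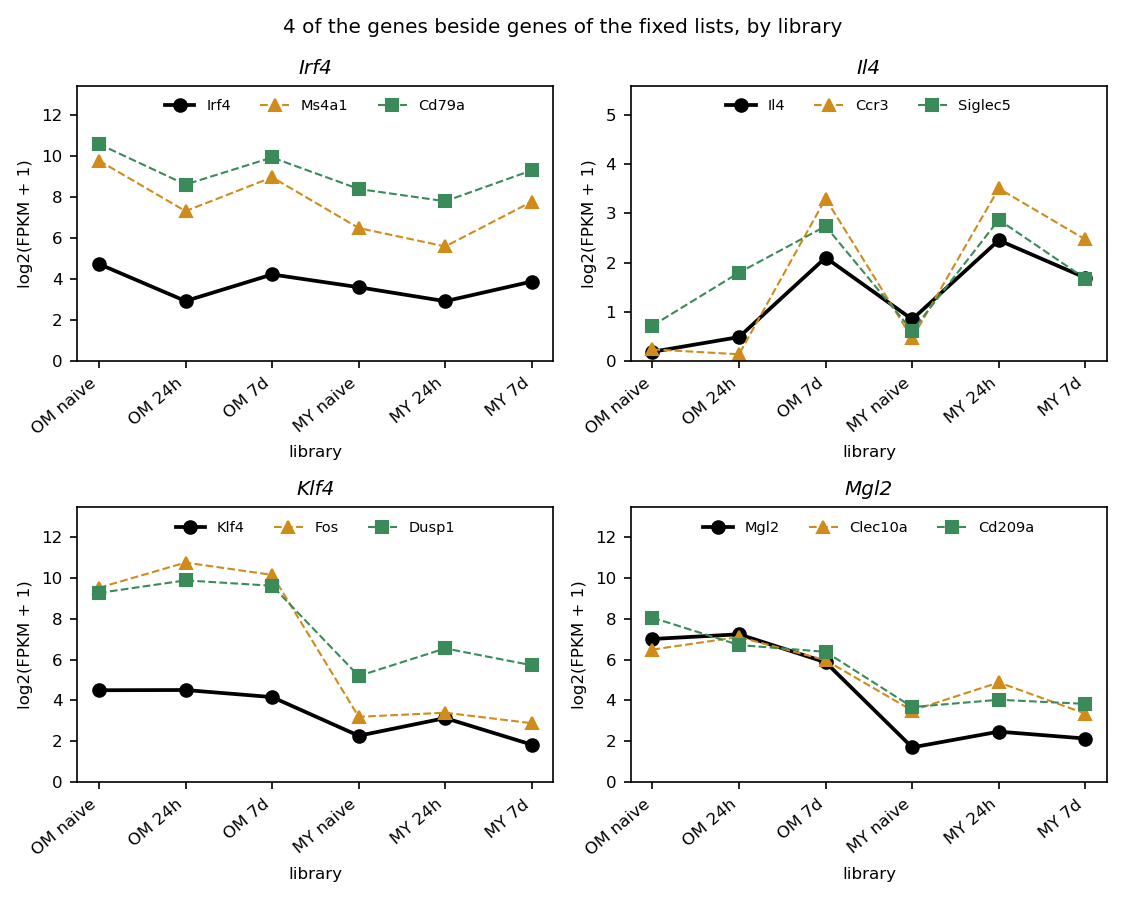
Log2(FPKM + 1) on the vertical axis for 4 of the genes (black circles) and for a pair of genes of the fixed lists beside each (coloured symbols), by library on the horizontal axis. Irf4, Ms4a1 and Cd79a are lowest at 24 h within each tissue, Il4 follows Ccr3, with both highest in MY 24h and OM 7d, and Klf4 and Mgl2 are higher in the omental libraries, as are the genes beside them. The vertical scale of the Il4 panel is shorter than that of the others.

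The cytokine genes were low. Il4 had an FPKM of 0.133 in OM naive, 0.395 in OM 24h and 3.29 in OM 7d, and 0.791, 4.48 and 2.23 in MY naive, MY 24h and MY 7d. In each tissue the naive library was the lowest, and the highest value came at 24 h in the mesentery and at 7 d in the omentum. As a log2(FPKM + 1) value, a scale on which low genes differ less than in FPKM, the difference to the naive library was 1.92 in OM 7d and 1.61 in MY 24h. Il13 was listed at 0 in 4 libraries, with 0.0369 in OM 7d and 0.0275 in MY naive. Il4 and Il13 lie close together on the minus strand of chromosome 11, at 53416484 to 53432171 and at 53444826 to 53448204. In the omentum Retnla was highest in OM naive, where Il4 was at its lowest. In the mesentery both genes were highest in MY 24h.

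Several kinds of cells produce IL-4, and genes of some of these kinds are given here. Single genes of their lists passed an FPKM of 10, such as Cma1 (24.6 in OM naive) and Gata3 (14.6 in MY naive). Ccr3, the eotaxin receptor gene of eosinophils, stood at an FPKM of 0.172, 0.0934 and 8.86 in OM naive, OM 24h and OM 7d, against 0.372, 10.4 and 4.54 in the mesenteric libraries in the same order, the same libraries being high as for Il4. Siglec5, the symbol under which the eosinophil gene of Siglec-F was looked up, was likewise highest in MY 24h (6.32) and OM 7d (5.68). Other genes of the list had another order, with Il5ra highest in OM naive (23.2) and Prg3 in MY naive (16.3). Over the whole list of 8 eosinophil genes, of which 6 were expressed, the summed FPKM was 9.81 to 38.5 in the omentum and 25.5 to 32.0 in the mesentery, and Epx, the eosinophil peroxidase gene, was listed at 0 in all libraries but MY 7d. The 5 basophil genes, of which 3 were expressed, summed to 0.309 to 17.0 in the omentum, highest in OM 7d, and to 1.75 to 3.79 in the mesentery. The 6 mast cell genes summed to 4.36 to 67.1 and to 38.5 to 71.0, and the 8 genes of Th2 cells and group 2 innate lymphoid cells to 7.54 to 25.3 and to 13.9 to 24.6. The part of these cells in the Il4 level was not tested.

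**Figure D4:**
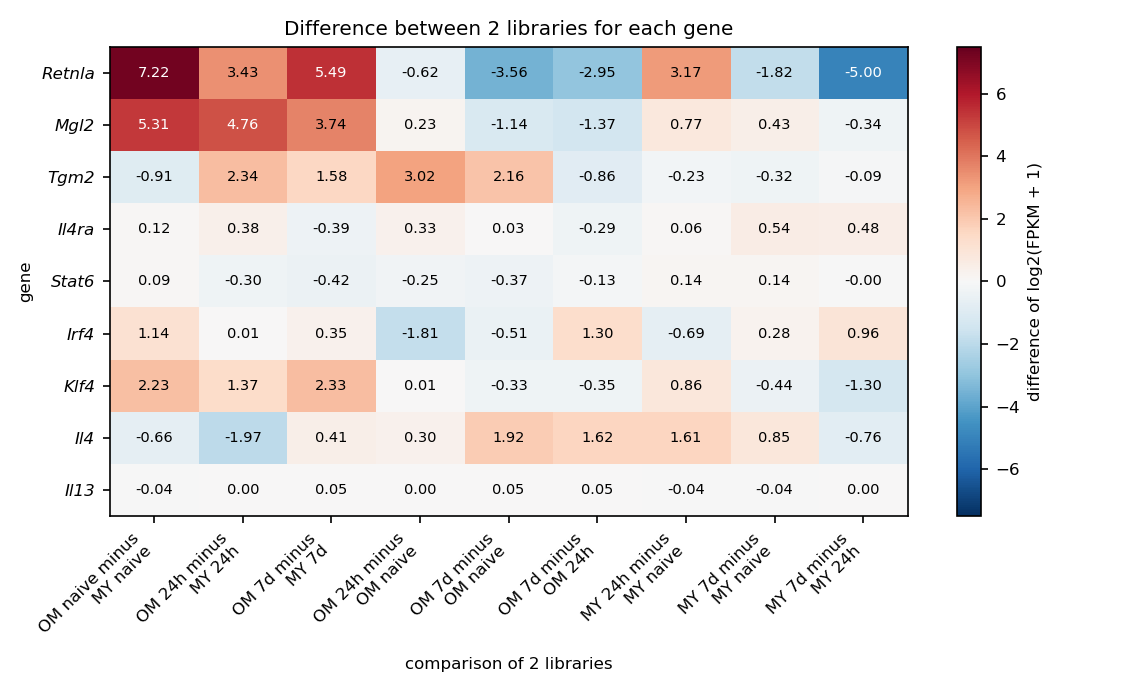
Difference of log2(FPKM + 1) between 2 libraries for each of the 9 genes (rows) in 9 comparisons (columns), with the value printed in each cell. Red is higher and blue lower in the library named first. The tissue comparisons on the left are red for Retnla, Mgl2 and Klf4 at each time, and the rows of Il4ra and Stat6 stay between -0.42 and 0.54.

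Counted together, 3 of the 8 expressed genes, namely Retnla, Mgl2 and Klf4, had every omental library above every mesenteric one, where 16.7% of all expressed genes did so, and 0 had the reverse, where 17.7% did. The gap was at least 2-fold for 2 of them, Mgl2 and Klf4, and for 2.73% of all genes, and for 0 genes in the reverse direction, where it was 2.12%. Without OM 24h, the library with Cd74 at 0, the count was 4, with Irf4 added, against 21.3% of all genes. Between the naive libraries 4 of the 8 genes were at least 2-fold higher in the omentum (Retnla, Mgl2, Irf4 and Klf4) and 0 lower, beside 8.18% and 8.05% of all expressed genes. At 24 h 4 were higher (Retnla, Mgl2, Tgm2 and Klf4) beside 13.9% of all genes, and Il4 was lower beside 10.2%. At 7 d the same 4 genes as at 24 h were higher, beside 14.1% of all genes, and 0 were lower, beside 4.99%. Since the genes were picked with such values known, these counts describe them and support nothing further.

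Over time in the omentum, Tgm2 was at least 2-fold higher and Irf4 lower at 24 h, beside 11.9% and 6.45% of all expressed genes. At 7 d against naive, Tgm2 and Il4 were higher and Retnla and Mgl2 lower, beside 11.0% and 1.96%. In the mesentery Retnla and Il4 were higher at 24 h, beside 2.80% of all genes, and 0 were lower, beside 1.52%. At 7 d against naive Retnla alone was lower, beside 2.29%, and 0 were higher, beside 0.498%. From 24 h to 7 d in the omentum, Retnla and Mgl2 were lower, beside 4.52% of all genes, and Irf4 and Il4 higher, beside 7.03%. Over the same interval in the mesentery, Retnla and Klf4 were lower, beside 3.54%, and 0 were higher, beside 1.84%.

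A list of 30 other genes that IL-4 or IL-13 is known to induce in mouse macrophages was set beside them. Of its genes 29 were in the table and 28 were expressed. Between the naive libraries 12 of the 28 were at least 2-fold higher in the omentum and 5 lower, beside 8.18% and 8.05% of all expressed genes, with a median log2 difference of 0.38 against 0.01. At 24 h the counts were 15 and 4, beside 13.9% and 10.2%, with a median of 1.13. At 7 d they were 14 and 3, beside 14.1% and 4.99%, with a median of 0.76. The medians of all expressed genes were then 0.00 and -0.01. The list was chosen with earlier results known and was not tested.

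At least 2-fold higher in the omentum at each of the 3 times were Fn1, Ccl24, Clec10a, Chil3, Egr2 and Ptgs1. Fn1, the fibronectin gene, had the widest naive difference of the list, 5.05, with an FPKM of 94.2 against 1.87. Ccl24, which encodes an eotaxin, stood at 16.6 against 0.386, and Chil3, the chitinase-like gene of Ym1, at 157 against 36.2. Il4i1, Ccl22 and Socs2 were at least 2-fold lower at each time. Il4i1 is an amino acid oxidase gene induced by IL-4 also in B cells and dendritic cells. Ccl22 is a chemokine gene of dendritic cells and macrophages, and Socs2 a feedback inhibitor gene. Il4i1 stood at 55.1 in OM naive and 406 in MY naive, a log2 difference of -2.86, and Socs2 at 6.81 and 52.4. The list thus did not move as a block between the tissues.

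**Figure D5:**
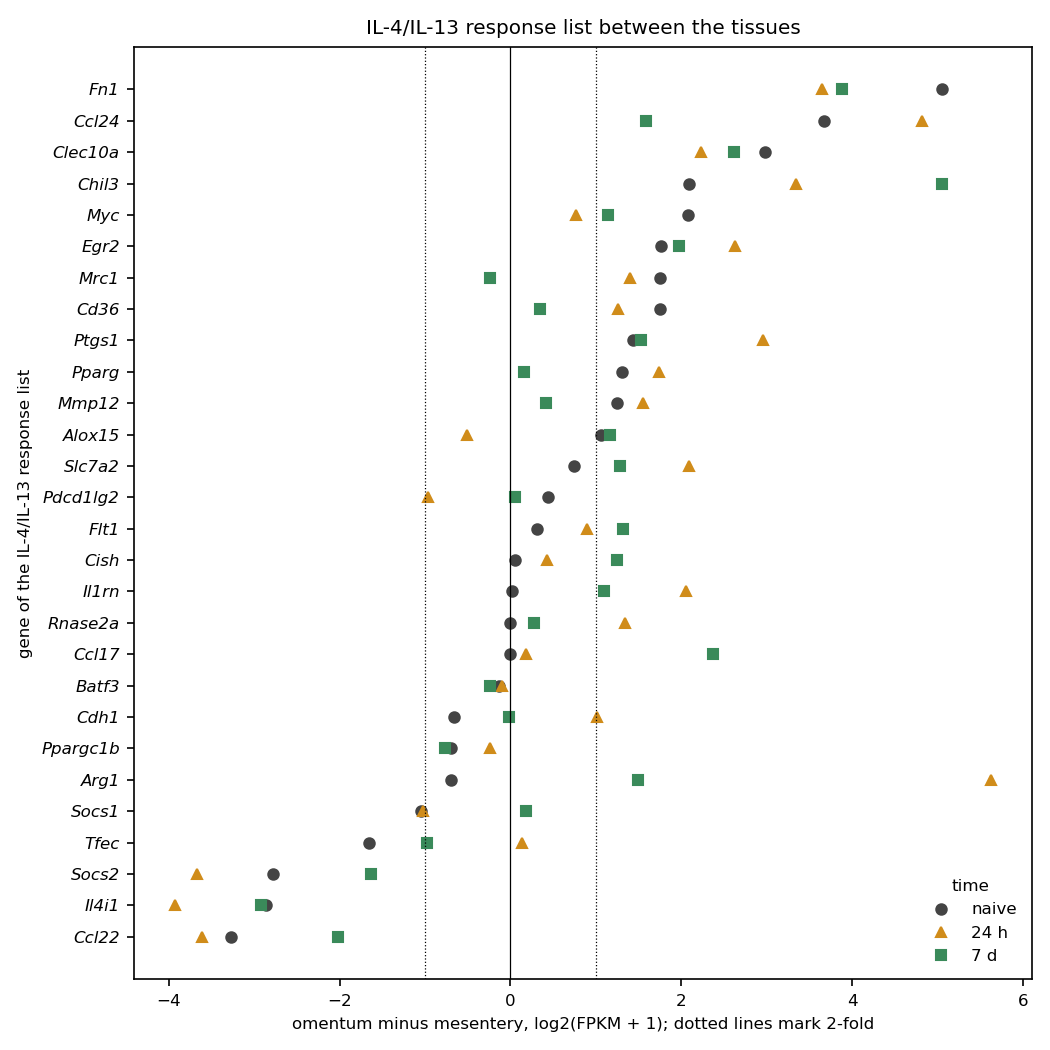
Omentum minus mesentery, as the difference of log2(FPKM + 1) on the horizontal axis, for the 28 expressed genes of the IL-4/IL-13 response list on the vertical axis. Circles are the naive libraries, triangles 24 h and squares 7 d, with 1 library per tissue and time, and dotted lines mark 2-fold. Fn1 lies to the right and Ccl22 and Il4i1 to the left at every time, while Arg1 lies at -0.70 when naive and at 5.63 at 24 h.

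The response list was also counted over time in the omentum. At 24 h against naive 13 of the 28 genes were at least 2-fold higher and 2 lower, beside 11.9% and 6.45% of all expressed genes, with a median of 0.77 against 0.00. At 7 d the counts were 7 and 4, beside 11.0% and 1.96%, with a median of 0.27. Arg1, the arginase gene that is used beside Retnla as a marker, stood at an FPKM of 0.463, 213 and 5.62 in OM naive, OM 24h and OM 7d, and did not exceed 3.34 in the mesentery. It was at its lowest in the library where Retnla was highest. Chil3 stood at 157, 555 and 629 in the same order, and Mrc1, the mannose receptor gene, at 20.8, 50.5 and 7.13. From 24 h to 7 d, 12 of the 28 genes were lower in the omentum and 5 higher, beside 4.52% and 7.03%.

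In the mesentery 5 of the 28 genes were at least 2-fold higher at 24 h (Mrc1, Clec10a, Alox15, Ccl17 and Fn1) and 0 lower, beside 2.80% and 1.52% of all expressed genes, with a median of 0.37. At 7 d against naive Alox15 alone was higher and 0 were lower, beside 0.498% and 2.29%. Alox15, the lipoxygenase gene that is also on the large peritoneal macrophage list, stood at 1.88, 32.6 and 15.5 in MY naive, MY 24h and MY 7d. From 24 h to 7 d, 7 genes were lower and 0 higher, beside 3.54% and 1.84%. The libraries in which more of these genes were high, OM 24h and MY 24h, were also those with the highest mean of the macrophage list in their tissue, and the part of that mean in the counts was not tested.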

How the data were processed

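RNA of sorted macrophages was sequenced, with 1 library for each of 6 conditions. The authors checked paired-end reads in FastQC 0.11.4, ran STAR 2.4.2a against the mm9 genome, and deposited FPKM per gene symbol, computed using Cufflinks. The number of reads behind an FPKM value is not given, so no count test was run. Libraries were grouped by the titles of their labels. The 9 genes and all gene lists were chosen with earlier results of these data known.

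Differences were computed as log2(FPKM + 1) in Python 3.11.15 with numpy 2.4.6 and pandas 2.3.3, and plotted (matplotlib 3.10.9). A gene counted as expressed where any library reached an FPKM of 1, and differences of at least 2-fold were counted, the threshold of the study's methods. Genes named are the 9 genes, list genes with an FPKM of at least 10 or past 2-fold, marker genes, and the 5 nearest profiles of genes ranging at least 4-fold. Genes named outside this rule, such as Retnlb, Retn and Il13ra2, were chosen after their values were seen. Calls, scaling and nearest profiles were tested on simulated data. Alternatives were pseudocounts of 0.1 and 5, median-ratio scaling, scaling to a sum of 1000000, other filters and the mean of the 3 times.

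Positions are from NCBIM37 and GENCODE M1, whereas the authors used a UCSC annotation. Promoters are from RefSeq. No value column of the table was left out. Some genes are not reported here.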

Additional observations from a re-analysis of the deposited data

Results flagged for a closer look

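Among 43 genes, which were the 9 genes and the 2 pathway lists at an FPKM of at least 10, 3 differed from their naive library by at least 1.5-fold in opposite directions in the tissues. The share of all genes that did so was not computed, so this count describes the genes examined only. Each direction rests on 1 pair of libraries, and the difference between the tissues was not tested. Retnla at 24 h differed on the log2(FPKM + 1) scale by -0.62 in the omentum, against 3.17 in the mesentery. Chil3 at 7 d differed by 1.99 in the omentum, against -0.96 in the mesentery. For Cd36, a fatty acid receptor gene, the 7 d values were -0.60 in the omentum, against 0.81 in the mesentery. The omental values of Retnla and Cd36 lay close to the limit of 0.58 that stands for 1.5-fold.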

How the results depend on the processing

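No paired analysis was possible because the labels number no replicates and only 1 library stood for each condition. A fit of tissue and time over the 6 libraries, with the times in the place of replicates, was not made. With no replicate spread, a log2 difference was taken as unmoved within 0.58 and a count within 1.5 times. Of 46 recomputed differences of Retnla 37 were unmoved, as were 299 of 359 for the other genes, and what caused the other shifts was not tested. Scaling each library to a sum of 1000000 moved the median log2 difference of all expressed genes to -0.19 between the naive libraries, -0.27 between the tissues at 24 h, -0.17, 0.12 and 0.36 for OM 24h against OM naive, OM 7d against OM naive and OM 7d against OM 24h.

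For Retnla, a pseudocount of 5 gave 4.85 between the tissues at 7 d and -4.37 for MY 7d against MY 24h, and the means of the 3 times gave 5.38 between the tissues. Relative to the macrophage list, an alternative chosen after seeing the data, it gave 6.23 (naive) and 1.49 (24 h) between the tissues, -2.81 for OM 24h against OM naive, -0.35 for OM 7d against OM 24h, 1.94 for MY 24h against MY naive and -4.04 for MY 7d against MY 24h. The same alternative turned the difference of Mgl2 between OM 7d and OM 24h to 1.22 and that of Klf4 between the tissues at 24 h to -0.57, both at least 2-fold before. Of smaller differences it turned, among others, that of Tgm2 between OM 7d and OM 24h to 1.74 and that of Mgl2 between OM 24h and OM naive to -1.96. The naive tissue difference of Irf4 became 0.14. Leaving out each library in turn, also chosen after seeing the data, left 3 to 4 genes with the omentum above the mesentery. The fourth was Tgm2 without OM naive, Irf4 without OM 24h and Il4ra without MY 7d.

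Counts of the 9 genes moved by 1 or 2, mostly through Il4. For genes lower in the omentum, the naive count was 1 with a pseudocount of 0.1 and 2 when scaled to the sum, and the 24 h count was 0 with a pseudocount of 5 or an FPKM of at least 1 in both libraries. With a pseudocount of 5 the number higher was 1 for OM 7d against OM naive, 0 for OM 7d against OM 24h and 1 for MY 24h against MY naive, and the number lower was 1 for MY 7d against MY 24h. With an FPKM of at least 1 in both libraries these numbers higher were each 1. With a pseudocount of 0.1 it was 2 for OM 24h against OM naive, and 1 for MY 7d against either earlier library, as when scaled to the sum, which also gave 1 lower for OM 7d against OM naive.

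In the response list a pseudocount of 5 left 3 lower between the naive libraries, 9 higher in the omentum at 7 d, 1 lower for OM 24h and 2 lower for OM 7d against OM naive, and 3 higher for OM 7d against OM 24h. An FPKM of at least 1 in both left 8 higher for OM 24h against OM naive. A pseudocount of 0.1 gave 1 lower for MY 24h and 2 higher for MY 7d against MY naive and 1 higher for MY 7d against MY 24h, and the sum gave 1 lower for MY 24h and for MY 7d against MY naive. In the receptor list the sum gave 2 higher and 1 lower between the naive libraries, 1 higher and 1 lower for OM 24h and 2 higher for OM 7d against OM naive. A pseudocount of 5 gave 1 lower in the omentum at 7 d, 1 higher for OM 24h against OM naive, 0 for OM 7d against OM 24h and 1 for MY 24h against MY naive.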

Other observations

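The list of 11 type 2 cytokines and alarmins, which includes Il4 and Il13, held 5 expressed genes, namely Il4, Csf2, Il33, Tslp and Il10. Il33, an alarmin gene of mesothelial and stromal cells, stood at an FPKM of 12.6 in OM 7d and at 1.72 to 4.23 in the other 5 libraries. Il10 stood at 14.7, 9.98 and 9.37 in OM naive, OM 24h and OM 7d, against 1.35, 2.24 and 1.22 in the mesentery. Il9, Il3, Il25 and Il31 were listed at 0 in all 6 libraries.

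Of the other transglutaminases, Tgm1, the keratinocyte enzyme gene, had an FPKM of 2.41, 4.19 and 0.933 in the omental libraries in order of time and of 20.4, 11.7 and 12.5 in the mesenteric ones. F13a1, the gene of the coagulation factor XIII A chain, which macrophages express, stood at 64.6, 157 and 48.5 in the omentum and at 4.43, 13 and 6.44 in the mesentery. Tgm5 had the same order over time in the omentum as Tgm2. It was listed at 0 in OM naive and in the mesenteric libraries and stood at 6.38 in OM 24h and 4.01 in OM 7d.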
